A study of Mus musculus with 42 samples.

Results

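Translation initiation factors were followed through T cell receptor stimulation of mouse CD4+ T cells. The members were the genes whose platform symbol begins with Eif and a digit from 1 to 6, apart from Eif2ak2, on transcript clusters that name 1 gene. The rule gave 48 of 19752 genes, read by 57 clusters, and the cluster with the highest mean stood for its gene. Of these 48, all but Eif4a3l1, an Eif4a3-like gene that stayed dim (4.91 to 7.17 in log2 intensity), passed the filter on low values. That left 47 factors among 12425 genes tested.

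Initiation brings a ribosome to the start codon of an mRNA. The cap-binding complex eIF4F unwinds the message and recruits the small ribosomal subunit, which carries eIF1, eIF1A, eIF3, eIF5 and the initiator tRNA held by eIF2. The exchange factor eIF2B recharges eIF2 with GTP, eIF5B joins the large subunit, and kinases that phosphorylate eIF2 shut the cycle down under stress. Resting T cells translate little and are known to build up ribosomes and protein synthesis after receptor stimulation, before they divide.

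The mice were of the NOD strain, which develops autoimmune diabetes, and carried a reporter that marks Foxp3, the lineage factor of regulatory T cells, with green fluorescent protein (GFP). CD4+ cells of the spleen that lacked B220, CD8a, CD11b and CD11c were sorted as conventional T cells (Tconv) or regulatory T cells (Treg). KT3, an antibody to the CD3 chains of the T cell receptor, was injected intravenously (genotype Foxp3-IRES-GFP), or added at 1.25 µg/ml to whole splenocyte cultures (genotype Foxp3-IREs-GFP+/+), and cells were taken at 0, 2, 8, 24 and 72 h. Each cell type, setting and time had 2 arrays, and 1 further array per cell type came from mice 24 h after control rat IgG, which gave 42 arrays. The in vivo mice were females of 8 weeks. In culture the arrays numbered 1 came from female mice of 9 weeks and those numbered 2 from males of 14 weeks, so sex, age and array number cannot be told apart there, nor setting and age. The labels do not say which samples share one, so the spread behind every p-value is that between these arrays and may be technical. The labels of the cultured Treg give a GFP-negative gate, against their titles, which were followed here. Foxp3 stood at 11.3 to 12.34 in log2 intensity on the 21 Treg arrays and at 7.02 to 8.2 on the 21 Tconv arrays.

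The arrays differ in ways that touch the results. The interquartile range of log2 values was narrow on 3 arrays, all numbered 1 and from culture: Tconv at 0 h, Tconv at 8 h and Treg at 0 h (1.64 to 2.19, against 2.29 to 3.21 on the other 39 arrays). On that Tconv array at 0 h the median of the 47 factors was 7.57, against 8.84 on the array numbered 2, while the medians of all tested genes were 7.32 and 7.57. In vivo, 9 of 10 arrays numbered 1 came from single-sorted cells and 10 of 12 numbered 2 from double-sorted cells. The mean log2 level of 28 markers of other spleen cells was higher on number 1 in 10 of 10 in vivo groups (6.22 to 7.28, against 5.45 to 5.63). No marker was at 0 on any array, but neither was any other cluster (lowest intensity 4.84), so this does not show that a marker was detected. The part of these cells in the results was not tested. In bulk samples, fewer cells of a type and less RNA per cell cannot be told apart.

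After injection of KT3 more initiation factors rose in Tconv at 8 h than at any other time in vivo. There, 27 of 47 factors rose by 8 h and none fell, with a median difference over the 47 of 0.90 in log2, against -0.06 over all genes. In Treg, 9 rose and Eif4e3, a relative of the cap-binding protein, fell, with medians of 0.51 and -0.02. Calls rest on limma's moderated test with p adjusted over all genes and a threshold of 0.05, and at 8 h they covered 21.0% of all genes in Tconv (14.4% higher) and 9.67% in Treg (6.36% higher). At 2 h, 4 factors rose in Tconv, where 3.51% of all genes were called (3.04% higher), and 9 rose and 1 fell in Treg, where 6.45% were called (5.04% higher). The highest group mean lay at 8 h for 35 of 47 factors in Tconv and for 25 of 47 in Treg. The share of all genes with their highest mean at 8 h is not given here, so these counts are not shown to be particular to the factors.

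**Figure D1:**
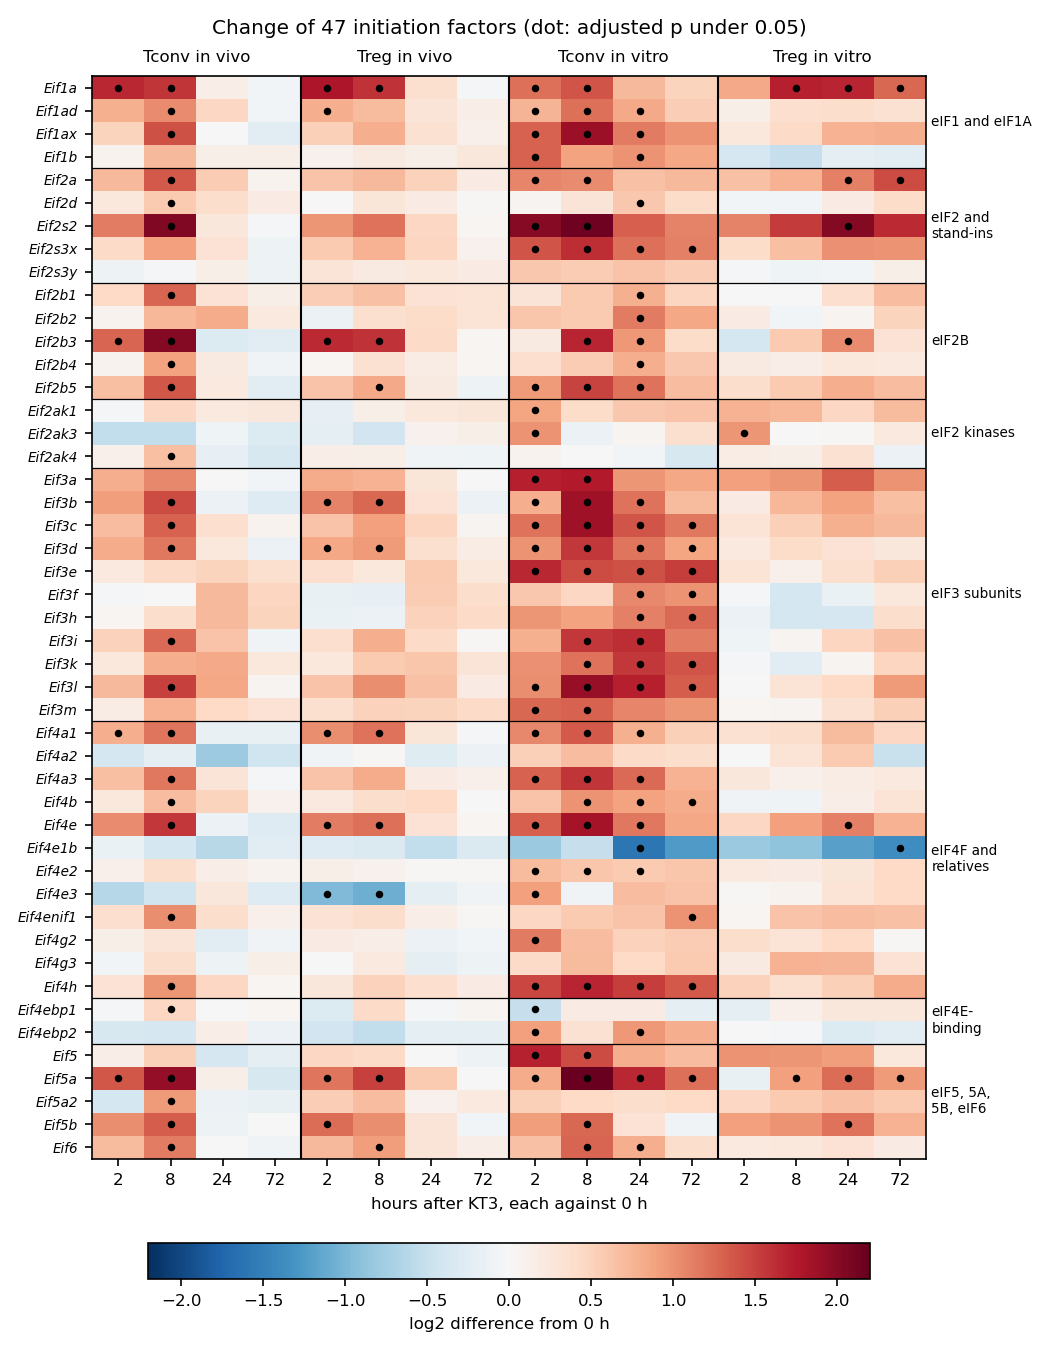
Log2 difference from 0 h (colour) of the 47 tested factors (rows, grouped by role) at 2, 8, 24 and 72 h (columns) in each cell type and setting, with a dot where the adjusted p was under 0.05. In vivo the dots gather at 2 and 8 h, 27 of them in Tconv at 8 h, and there are none at 24 or 72 h, while in culture Tconv carry dots at every time.

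Differences were also taken between arrays of the same number, since number goes with the sorting passes. At 8 h in Tconv the median difference of the 47 factors was 0.86 between the arrays numbered 1 and 1.01 between those numbered 2, and all genes gave -0.05 and -0.03. In Treg the factors' medians were 0.60 and 0.57. With array number as a block, no in vivo call was lost: Eif3d and Eif5b were added in Tconv at 2 h (6 called), Eif2b2 in Tconv at 8 h (28 called), and Eif3c, Eif3l and Eif5b in Treg at 8 h (13 called). Without the 3 narrow arrays, which enter these comparisons only through the shared estimate of spread, 34 factors were called at 8 h in Tconv and 20 in Treg. At 2 h the counts without them were 13 in Tconv and 11 in Treg. The shares of all genes called are not given here for fits with arrays left out. When 1 of the 4 arrays compared was left out in turn, 17 to 20 factors were called at 8 h in Tconv and 5 or 6 in Treg, and at 2 h 2 to 4 in Tconv and 3 or 4 in Treg. Of the 27 in Tconv, 12 kept the call each time: Eif1a, Eif1ad, Eif2b1, Eif2b3, Eif2b5, Eif3b, Eif3c, Eif3d, Eif3l, Eif4a1, Eif4e and Eif5a. In Treg at 8 h the 5 that did were Eif1a, Eif2b3, Eif3b, Eif4a1 and Eif5a. At 2 h, Eif1a and Eif5a did in Tconv, and these and Eif2b3 in Treg.

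**Figure D2:**
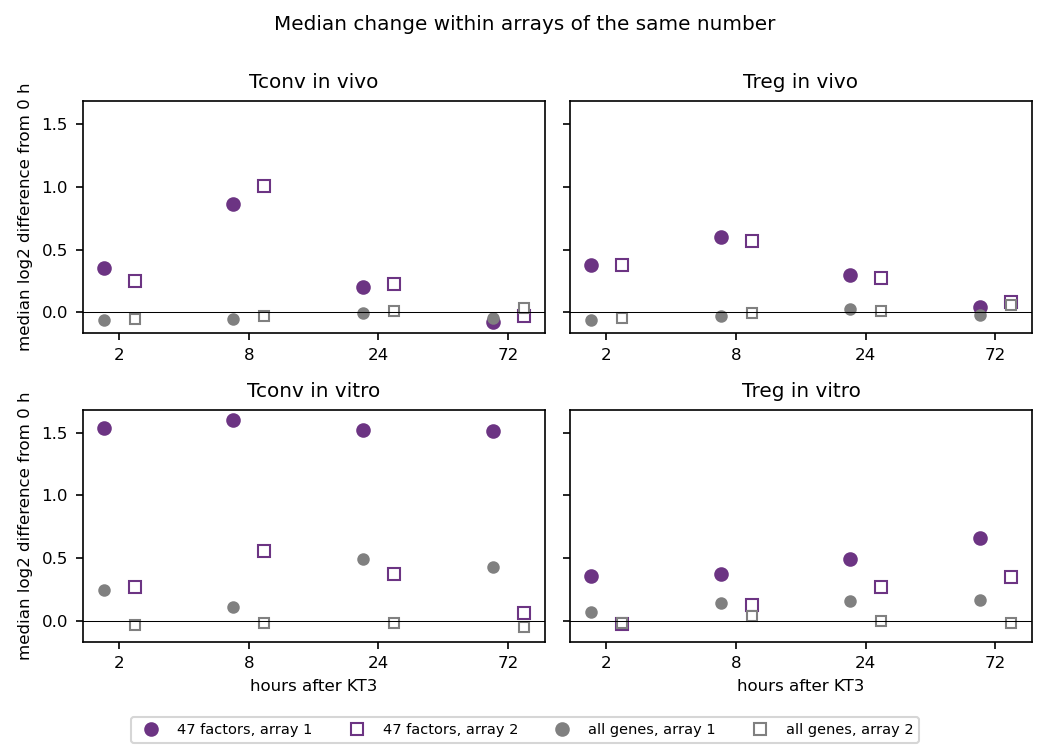
Median log2 difference from 0 h over the 47 factors (purple) and over all tested genes (grey), between arrays numbered 1 (filled circles) and between arrays numbered 2 (open squares), at each time in each cell type and setting. In vivo both numbers give like values, 0.86 and 1.01 in Tconv at 8 h, whereas in cultured Tconv they part, with 1.60 and 0.56 at 8 h.

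Among the factors that sit in the decoding site of the small subunit, Eif1a stood out early. Eif1a and Eif1ax encode eIF1A, which holds the scanning ribosome open and helps to fix the start codon. In Tconv in vivo, Eif1a read 7.71 and 8.06 at 0 h, 9.44 and 9.67 at 2 h, 9.19 and 9.72 at 8 h, 7.77 and 8.31 at 24 h, and 7.76 and 7.91 at 72 h. In Treg it read 8.33 and 8.08 at 0 h, 10.15 and 9.83 at 2 h, 9.88 and 9.71 at 8 h, 8.70 and 8.41 at 24 h, and 8.32 and 8.00 at 72 h. In both cell types the arrays at 2 and 8 h lay above those at every other time, with no overlap. The rise at 2 h was 1.67 ± 0.31 in Tconv (standard error of the model, as for all errors here, adjusted p = 0.00136) and 1.78 ± 0.31 in Treg (adjusted p = 0.000391). At 8 h it was 1.57 ± 0.31 and 1.59 ± 0.31. Eif1ax rose in Tconv at 8 h by 1.40 ± 0.42, a call (adjusted p = 0.0163) that was lost without any 1 of the 4 arrays (adjusted p of 0.0745 to 0.0827). Eif1ad, an eIF1A-domain protein, rose by 1.03 ± 0.24 there, whereas Eif1b, a relative of eIF1, was not called at any in vivo time against 0 h.

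The eIF2 complex brings the initiator tRNA, and the difference of its beta subunit Eif2s2 was large. In Tconv in vivo, Eif2s2 read 7.51 and 8.45 at 0 h, 8.66 and 9.56 at 2 h, 9.63 and 10.39 at 8 h, 7.73 and 8.73 at 24 h, and 7.32 and 8.60 at 72 h. The array numbered 1 was the lower of the pair at each time, so the groups at 8 h and 0 h did not overlap but their spread was wide. The rise at 8 h was 2.03 ± 0.61 (adjusted p = 0.0184), and it was lost without the 0 h array numbered 1 (adjusted p = 0.187) or the 8 h array numbered 2 (adjusted p = 0.166). In Treg, Eif2s2 read 8.45 and 8.58 at 0 h and 9.80 and 9.62 at 8 h, a difference of 1.19 ± 0.61 that was not called. Of the proteins that can stand in for eIF2, Eif2a rose in Tconv at 8 h by 1.35 ± 0.31 (adjusted p = 0.00255, and 0.0812 without the 0 h array numbered 1), from 7.75 and 8.51 to 9.31 and 9.65. Eif2d rose by 0.58 ± 0.18 (adjusted p = 0.0221), without a call when the 8 h array numbered 1 (adjusted p = 0.352) or the 0 h array numbered 2 (adjusted p = 0.177) was left out. The X-linked gamma subunit, Eif2s3x, read 10.81 and 10.91 at 0 h and 11.59 and 11.93 at 8 h in Tconv, a difference of 0.90 ± 0.34 (adjusted p = 0.0635).

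Eif2b3, the gamma subunit of the exchange factor eIF2B, had one of the largest differences as well. In Tconv in vivo it read 7.76 and 7.57 at 0 h, 9.32 and 8.59 at 2 h, 9.82 and 9.56 at 8 h, 7.28 and 7.47 at 24 h, and 7.56 and 7.27 at 72 h. In Treg it read 7.63 and 6.87 at 0 h, 9.22 and 8.58 at 2 h, 9.07 and 8.62 at 8 h, 7.88 and 7.48 at 24 h, and 7.35 and 7.25 at 72 h. All arrays at 2 and 8 h thus lay above all arrays of the other times in the same cell type. The rise at 8 h was 2.02 ± 0.28 in Tconv (adjusted p = 1.19e-05) and 1.59 ± 0.28 in Treg (adjusted p = 0.000511). At 2 h it was 1.64 ± 0.28 in Treg and 1.29 ± 0.28 in Tconv, where the call was lost without the 2 h array numbered 1 (adjusted p = 0.296) or the 0 h array numbered 2 (adjusted p = 0.105). Of the 5 eIF2B subunits, 4 rose in Tconv at 8 h, including the catalytic Eif2b5 (1.36 ± 0.25), and 2 in Treg, Eif2b3 and Eif2b5 (0.83 ± 0.25, a call lost without any 1 of the 4 arrays). Eif2b2 was not called in vivo.

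Of the 3 kinases tested that phosphorylate eIF2, 1 was called in vivo. Eif2ak4, which senses uncharged tRNA, rose in Tconv at 8 h by 0.65 ± 0.16 (adjusted p = 0.00462, and 0.0588 without the 8 h array numbered 1) and fell by 0.83 between 8 and 24 h (standard error 0.16, adjusted p = 0.000517). Eif2ak3, the kinase of the endoplasmic reticulum stress response, read 7.95 and 8.14 at 0 h in Tconv, 7.37 and 7.63 at 2 h, and 7.53 and 7.48 at 8 h. Its arrays at 2 and 8 h thus lay below those at 0 h, but neither difference was called (-0.55 ± 0.25 and -0.54 ± 0.25). In Treg it read 8.05 and 7.91 at 0 h and 7.72 and 7.40 at 8 h, also not called. Eif2ak1, the heme-regulated kinase, was not called in vivo.

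Part of the subunits of eIF3, the scaffold between mRNA and ribosome, was called. The median difference over all 11 tested, called or not, was 1.05 in Tconv at 8 h, and differences between subunits were not tested. In Tconv at 8 h, 5 of 11 rose: Eif3l (1.50 ± 0.33), Eif3b (1.43 ± 0.27), Eif3c (1.29 ± 0.31), Eif3i (1.25 ± 0.38) and Eif3d (1.16 ± 0.25). Eif3i lost its call without the 8 h array numbered 1 (adjusted p = 0.19) or the 0 h array numbered 2 (adjusted p = 0.183). Eif3l read 9.87 and 9.67 at 0 h, 10.87 and 10.09 at 2 h, 11.32 and 11.21 at 8 h, 10.65 and 10.60 at 24 h, and 10.01 and 9.64 at 72 h, so that the arrays at 24 h still lay between the peak and the start. The core subunit Eif3b read 10.82 and 10.61 at 0 h, 12.17 and 12.12 at 8 h, and 10.52 and 10.64 at 24 h. In Treg, Eif3b (1.27 ± 0.27) and Eif3d (0.94 ± 0.25) rose at 8 h and, with calls lost without any 1 of the 4 arrays, at 2 h (1.08 ± 0.27 and 0.85 ± 0.25). The call of Eif3d in Treg at 8 h was lost without 3 of the 4 arrays (adjusted p of 0.0802 to 0.186) and held without the 0 h array numbered 1.

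Other eIF3 subunits had differences at 24 h as large as those at 8 h or larger. Eif3f read 11.23 and 10.67 at 0 h in Tconv, 11.15 and 10.74 at 8 h, and 11.78 and 11.56 at 24 h. Eif3h read 11.62 and 10.92 at 0 h, 11.88 and 11.43 at 8 h, and 12.06 and 11.89 at 24 h. Eif3k read 10.07 and 9.44 at 0 h, 10.83 and 10.26 at 8 h, and 10.83 and 10.33 at 24 h. The arrays of these 3 genes at 24 h lay above both at 0 h, as did those of 18 of the 47 factors in all and of 23.3% of all genes. None of the 3 was called at 24 h (Eif3f 0.72 ± 0.29, adjusted p = 0.358, Eif3h 0.71 ± 0.37, adjusted p = 0.622, Eif3k 0.83 ± 0.38, adjusted p = 0.488). Eif3f, Eif3h and Eif3k were picked out here after their values were seen.

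In the cap-binding and helicase arm the calls differed between close relatives. Eif4a1, the RNA helicase of eIF4F, read 12.01 and 11.77 at 0 h in Tconv, 12.85 and 12.54 at 2 h, 13.10 and 13.04 at 8 h, 11.69 and 11.75 at 24 h, and 11.81 and 11.63 at 72 h. In Treg it read 11.64 and 11.71 at 0 h, 12.70 and 12.68 at 2 h, 12.87 and 12.89 at 8 h, and 11.92 and 11.97 at 24 h. It rose by 1.18 ± 0.23 in Tconv (adjusted p = 0.000434) and by 1.20 ± 0.23 in Treg (adjusted p = 0.00106) at 8 h. At 2 h Eif4a1 rose by 0.81 ± 0.23 in Tconv, a call (adjusted p = 0.0466) lost without any 1 of the 4 arrays (adjusted p of 0.0543 to 0.499), and by 1.02 ± 0.23 in Treg, lost without the array numbered 1 at 0 h (adjusted p = 0.0523) or at 2 h (adjusted p = 0.0746). Its paralog Eif4a2 read 10.50 and 11.11 at 0 h in Tconv and 10.24 and 10.97 at 8 h, and was called at no time in either cell type or setting. Eif4a3, a core protein of the exon junction complex, rose in Tconv at 8 h (1.16 ± 0.35), without a call when the 8 h array numbered 1 (adjusted p = 0.172) or the 0 h array numbered 2 (adjusted p = 0.201) was left out. The difference between the paralogs' responses was not tested.

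Eif4e, which binds the cap, read 9.45 and 9.59 at 0 h in Tconv, 10.50 and 10.61 at 2 h, 10.92 and 11.25 at 8 h, and 9.09 and 9.69 at 24 h. The rise at 8 h was 1.56 ± 0.32 in Tconv (adjusted p = 0.000712) and 1.22 ± 0.32 in Treg (adjusted p = 0.0142), the latter a call lost without any 1 of the 4 arrays (adjusted p of 0.0608 to 0.123). Eif4e3, a cap-binding relative, went the other way in Treg: 8.85 and 8.47 at 0 h, 7.58 and 7.79 at 2 h, 7.73 and 7.46 at 8 h, 8.72 and 8.22 at 24 h, and 8.65 and 8.52 at 72 h. The arrays at 2 and 8 h lay below all others of Treg. Eif4e3 fell by 0.98 at 2 h (standard error 0.27, adjusted p = 0.0232) and by 1.07 at 8 h (standard error 0.27, adjusted p = 0.0107). The call at 2 h was lost without any 1 of the 4 arrays (adjusted p of 0.0538 to 0.286) and with median centring, and that at 8 h without the 0 h array numbered 1 (adjusted p = 0.135) or the 8 h array numbered 2 (adjusted p = 0.104). In Tconv, Eif4e3 read 7.29 and 7.47 at 0 h, 6.59 and 6.92 at 2 h, and 6.83 and 7.05 at 8 h, lower on each array but not called (-0.63 ± 0.27 and -0.44 ± 0.27).

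The helpers and inhibitors of eIF4F gave smaller differences. In Tconv at 8 h, Eif4h and Eif4b, which stimulate the helicase, rose by 0.97 ± 0.31 and 0.68 ± 0.24. Eif4enif1, a carrier that takes eIF4E to the nucleus, rose by 1.03 ± 0.29. Each of these 3 calls was lost without at least 2 of the 4 arrays. Eif4h read 10.44 and 9.97 at 0 h and 11.30 and 11.04 at 8 h. The eIF4E-binding protein Eif4ebp1, which sequesters eIF4E, read 7.16 and 7.06 at 0 h and 7.75 and 7.39 at 8 h in Tconv, a rise of 0.46 ± 0.17 (adjusted p = 0.0481). That call was lost without the array numbered 1 at 0 h or 8 h or the array numbered 2 at 0 h (adjusted p of 0.103 to 0.411). Eif4ebp2 differed by -0.37 ± 0.26 there and was not called, although it passed the test after quantile normalization. The scaffold relatives Eif4g2 and Eif4g3 were not called in vivo.

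Eif5a, the hypusine-bearing factor now known mainly for its part in elongation, kept its calls at 2 and 8 h in vivo without any 1 array. In Tconv in vivo it read 11.11 and 10.88 at 0 h, 12.44 and 12.29 at 2 h, 12.89 and 12.96 at 8 h, 11.02 and 11.23 at 24 h, and 10.64 and 10.66 at 72 h. In Treg it read 11.19 and 11.05 at 0 h, 12.29 and 12.30 at 2 h, 12.39 and 12.85 at 8 h, 11.69 and 11.70 at 24 h, and 11.08 and 11.19 at 72 h. The 2 h and 8 h arrays of each cell type lay above all its other arrays. The rise at 8 h was 1.93 ± 0.24 in Tconv (adjusted p = 3.29e-06) and 1.50 ± 0.24 in Treg (adjusted p = 0.000201). At 2 h it was 1.37 ± 0.24 and 1.17 ± 0.24. Eif5a2, its paralog, rose in Tconv at 8 h by 0.93 ± 0.29 but differed by -0.39 ± 0.29 at 2 h, which was not called. The call of Eif5a2 was lost without the 0 h array numbered 1 (adjusted p = 0.288) or the 8 h array numbered 2 (adjusted p = 0.202).

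Eif5b, which joins the subunits, read 7.76 and 8.47 at 0 h in Tconv, 8.86 and 9.43 at 2 h, 9.20 and 9.71 at 8 h, and 7.59 and 8.42 at 24 h. In Treg it read 8.41 and 8.32 at 0 h, 9.68 and 9.52 at 2 h, 9.46 and 9.34 at 8 h, and 8.75 and 8.55 at 24 h. Eif5b rose by 1.34 ± 0.34 in Tconv at 8 h (adjusted p = 0.00601, lost without the 0 h array numbered 1, adjusted p = 0.122, or the 8 h array numbered 2, adjusted p = 0.0935). In Treg it rose by 1.23 ± 0.34 at 2 h, a call lost without any 1 of the 4 arrays, and its 1.03 ± 0.34 at 8 h was not called. Eif6, which keeps free large subunits apart from small ones, rose at 8 h by 1.13 ± 0.29 in Tconv and 0.92 ± 0.29 in Treg, the first lost without the 8 h array numbered 1 (adjusted p = 0.0725) or the 0 h array numbered 2 (adjusted p = 0.102), the second without any 1 of the 4 arrays. Eif5, which triggers GTP hydrolysis by eIF2, read 9.65 and 10.24 at 0 h and 10.06 and 10.88 at 8 h in Tconv, and was not called in vivo.

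**Figure D3:**
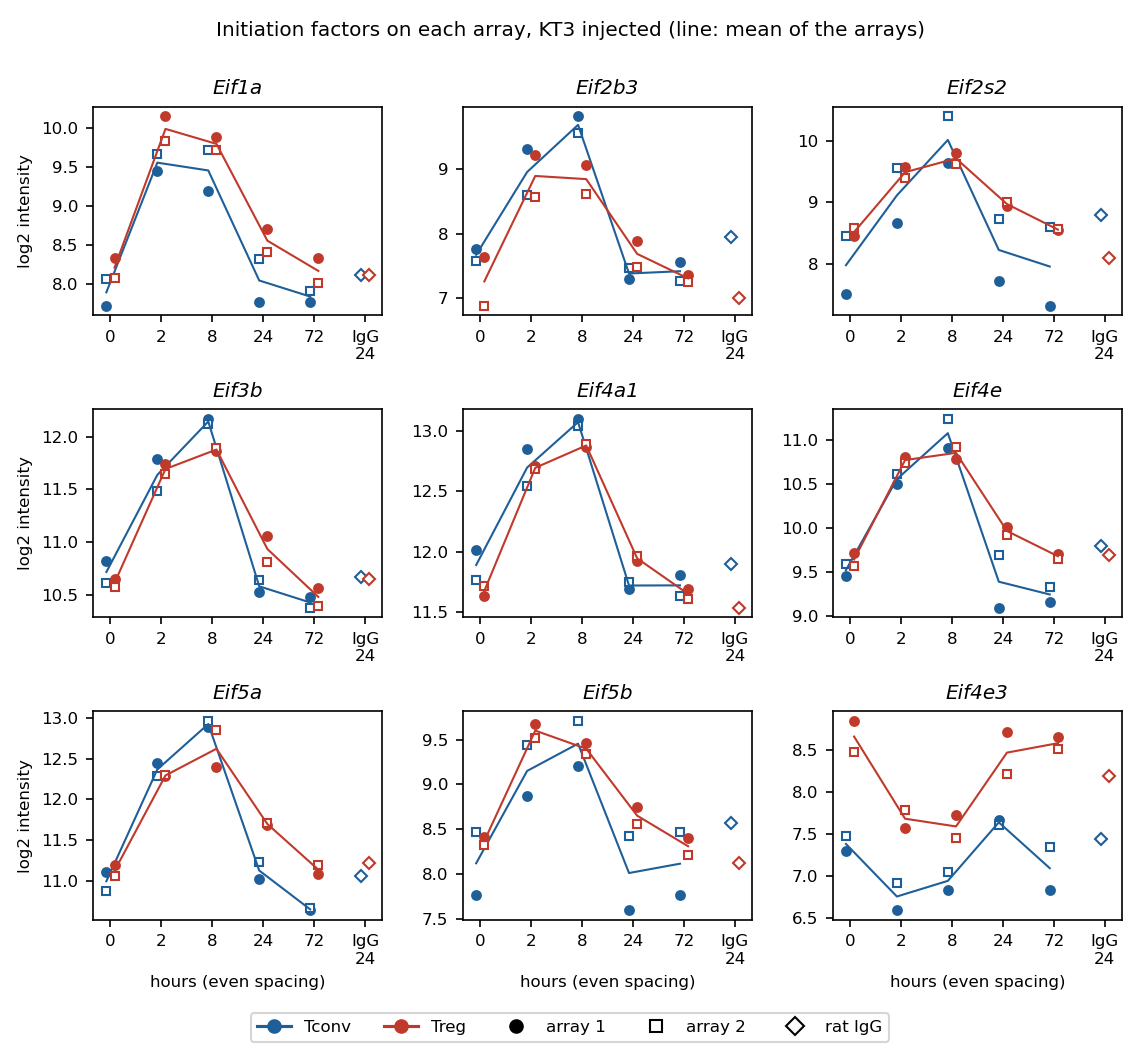
Log2 intensity of 9 factors (panels) on each array after KT3 injection, by hours (even spacing) for Tconv (blue) and Treg (red), with array 1 as filled circles, array 2 as open squares, the line at the mean, and the single rat IgG arrays as diamonds. The first 8 panels have their highest means at 2 h or 8 h and lower ones at 24 h and 72 h, while Eif4e3 in Treg dips from 8.85 and 8.47 to 7.73 and 7.46 at 8 h.

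The sequences of 3 promoters are shown because Eif4a1, Eif4e and Eif5a, which rose together, each hold the E-box CACGTG in at least 1 window from 250 bases before to 50 after a transcription start (RefSeq, GRCm38.p6). Eif4a1 has 1 window, which holds it, Eif4e has 2, of which 1 does, and Eif5a has 6, of which 3 do; the first with a match is shown. CACGTG, the same on both strands, is set in capitals and is the sequence bound by MYC with MAX and by related factors. It begins 189 bases before the start in Eif4a1, 228 and 64 bases before it in Eif4e, and 74 bases before it in Eif5a. None of these matches overlaps another motif searched. The windows were taken by gene, and each of these genes is read by more than 1 cluster. Whether the cluster used for a gene lies behind the window shown was not checked.
Eif4a1 promoter, chr11:69672374-69672673, minus strand: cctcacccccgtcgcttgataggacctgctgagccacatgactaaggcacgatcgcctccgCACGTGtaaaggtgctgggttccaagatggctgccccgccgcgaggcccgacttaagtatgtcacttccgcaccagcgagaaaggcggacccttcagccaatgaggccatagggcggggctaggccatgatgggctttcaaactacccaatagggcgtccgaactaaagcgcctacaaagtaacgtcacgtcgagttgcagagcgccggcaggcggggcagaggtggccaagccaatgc
Eif4e promoter, chr3:138527018-138527317, plus strand: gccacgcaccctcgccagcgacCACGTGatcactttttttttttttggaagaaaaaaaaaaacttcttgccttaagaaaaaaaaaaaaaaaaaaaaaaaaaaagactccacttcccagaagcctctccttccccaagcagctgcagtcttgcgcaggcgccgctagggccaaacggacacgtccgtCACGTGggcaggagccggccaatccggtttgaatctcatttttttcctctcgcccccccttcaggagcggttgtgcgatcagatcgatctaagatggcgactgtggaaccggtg
Eif5a promoter, chr11:69921337-69921636, minus strand: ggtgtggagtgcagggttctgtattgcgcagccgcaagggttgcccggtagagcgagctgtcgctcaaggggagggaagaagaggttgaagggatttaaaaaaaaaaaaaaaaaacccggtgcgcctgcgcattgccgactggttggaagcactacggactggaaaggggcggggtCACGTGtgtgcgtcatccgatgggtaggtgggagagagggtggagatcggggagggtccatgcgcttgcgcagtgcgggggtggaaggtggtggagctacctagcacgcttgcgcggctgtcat

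A promoter window was found for 38 of the 48 members, and 9 of them (23.7%) hold CACGTG, against 8.09% of 27025 genes in the same table. A gene counts if any of its windows holds the motif, and the numbers of windows per gene were not matched. The 9 were Eif1b, Eif3a, Eif3f, Eif3k, Eif4a1, Eif4e, Eif4h, Eif5a and Eif5a2. Among factors with a window, 5 of 22 called in Tconv at 8 h in vivo and 4 of 15 not called hold it, so the match did not part the factors that rose from those that did not. On either strand, GGGCGG was found for 29 of these 38 members (76.3%, against 38.2% of all genes) and CCGGAAG for 15 (39.5%, against 9.93%). The sequence TGATGNAAT was in none of the 38, and in 1.08% of all. A match describes letters in a window and says nothing of binding in these cells.

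Between 8 and 24 h in vivo part of the factors fell. In Tconv, 18 of 47 fell and none rose, with a median difference of -0.62, where 19.4% of all genes were called (10.9% lower). Among the 18, Eif2b3 fell by 2.32 (standard error 0.28, adjusted p = 1.5e-06), Eif5a fell by 1.80 (standard error 0.24) and Eif2s2 fell by 1.78 (standard error 0.61, adjusted p = 0.0415). In Treg, 5 fell, Eif1a, Eif2b3, Eif3b, Eif4a1 and Eif5a, where 4.84% of all genes were called (2.21% lower). These 8 h arrays are the same that served against 0 h. For the alternative fits that follow, the share of all genes called is not given here. Leaving out any 1 of the arrays compared gave 10 to 13 calls in Tconv and 0 or 1 in Treg, leaving out the 3 narrow arrays gave 30 and 8, and array number as a block gave 21 and 6, with Eif3f and Eif4e3 called higher and Eif4a3 lower in Tconv and Eif4e3 higher in Treg. Differences above 0 between 24 and 8 h in Tconv were measured for Eif2ak3, Eif2b2, Eif2s3y, Eif3e, Eif3f, Eif3h, Eif3k, Eif4e3 and Eif4ebp2, none of them called.

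At 24 h and 72 h in vivo no factor differed from 0 h in either cell type by limma's test. At 24 h, 2.4% of all genes were called in Tconv and 0.483% in Treg, and at 72 h 0.29% and 0.0241%. At an unadjusted p under 0.05 there were 5 factors at 24 h and 1 at 72 h in Tconv, and 1 and 0 in Treg. The median difference at 24 h was 0.20 in Tconv and 0.28 in Treg, with 31 and 38 of 47 factors above 0. Without the 3 narrow arrays, 1 factor was called at 24 h in Tconv.

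The control injection gave no call. Against 0 h, rat IgG at 24 h gave 0 factors in either cell type by limma's test, where 0.0% of all genes were called, and 0 factors had an unadjusted p under 0.05 in Tconv or Treg. KT3 against rat IgG at 24 h also gave 0 factors, where 1.47% of all genes were called in Tconv and 0.274% in Treg, with 3 and 10 factors at an unadjusted p under 0.05. The median difference of KT3 from rat IgG was 0.09 in Tconv and 0.46 in Treg, against -0.04 and 0.10 over all genes. In Treg 42 of 47 factors were above 0 in that comparison. Against the mean of the 0 h arrays, the Treg IgG array had 11 of 47 factors above 0 and a median of -0.17 (-0.07 over all genes). Both IgG arrays are numbered 2, while the groups they are compared with hold both numbers. The median level of the factors was 8.67 on the Treg IgG array, against 9.0 and 8.73 on the Treg 0 h arrays numbered 1 and 2. In Tconv it was 9.05 with IgG, against 8.7 and 8.94 at 0 h. The Treg arrays with KT3 at 24 h had, for example, Eif3k at 10.05 and 9.81, against 8.70 on the IgG array and 9.54 and 9.08 at 0 h. The IgG groups hold 1 array each, from 24 h, whose spread the model assumes to be that of the other groups.

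The calls of the cell types were set side by side. At 8 h, 9 factors were called in both: Eif1a, Eif2b3, Eif2b5, Eif3b, Eif3d, Eif4a1, Eif4e, Eif5a and Eif6. They are 33.3% of the calls in Tconv and 90.0% of those in Treg. At 2 h all 4 factors called in Tconv, Eif1a, Eif2b3, Eif4a1 and Eif5a, were called in Treg, where they were 40.0% of the calls. The share of all genes called in both was not computed. The difference between the responses, tested as an interaction, was called for 0 factors at any time. Of all genes, 0.0483% were called at 2 h, 0.233% at 8 h, 0.0644% at 24 h and 0.0161% at 72 h, and at an unadjusted p under 0.05 there were 1, 1, 0 and 0 factors. At 8 h the Treg difference minus the Tconv difference was below 0 for all but 6 of the 47 factors, with a median of -0.31 against -0.02 over all genes. Single differences were wide: -0.84 ± 0.87 for Eif2s2, -0.65 ± 0.41 for Eif4enif1 and -0.64 ± 0.44 for Eif2a. The longer list in Tconv is thus not shown to be a different response.

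**Figure D4:**
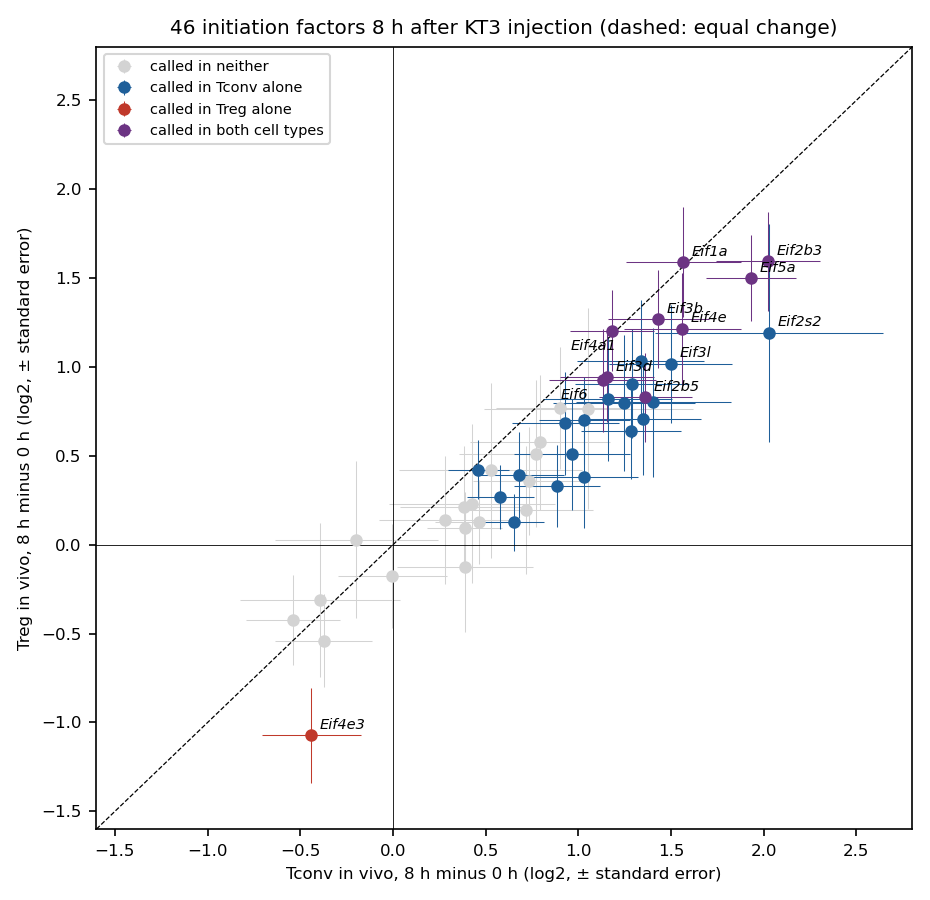
Log2 difference between 8 h and 0 h in vivo in Tconv (horizontal) and Treg (vertical) for each tested factor but Eif2s3y, with standard errors, coloured by the cell type in which it was called. The points of Eif1a, Eif2ak3, Eif4a1, Eif4a2 and Eif4e1b lie above the dashed line of equal change and the others below it, and Eif4e3 at -0.44 in Tconv and -1.07 in Treg is at the lower left.

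Before stimulation 1 factor differed between the cell types in vivo. Eif4e3 was higher in Treg by 1.28 ± 0.27 (adjusted p = 0.00418), with 8.85 and 8.47 against 7.29 and 7.47, where 3.1% of all genes were called. The call was lost without the Tconv array numbered 1 (adjusted p = 0.0741) or the Treg array numbered 1 (adjusted p = 0.138). In the cultured samples at 0 h, Eif4e3 was again higher in Treg, by 1.24 ± 0.27 (7.87 and 8.33 against 6.43 and 7.28, adjusted p = 0.00523), a call lost without the Tconv array numbered 1 (adjusted p = 0.259) or the Treg array numbered 2 (adjusted p = 0.182). Eif2s3x (1.06 ± 0.34), Eif4h (0.98 ± 0.31) and Eif5a (0.80 ± 0.24) were called there as well, where 11.2% of all genes were. Eif2s3x, Eif4h and Eif5a rest on the narrow Tconv array: Eif2s3x read 8.34 on it and 10.04 on the other, against 10.15 and 10.35 in Treg. Without that array the adjusted p-values of Eif2s3x, Eif4h and Eif5a were 0.968, 0.984 and 0.939, and without the Treg array numbered 2 they were 0.358, 0.268 and 0.245. Without all 3 narrow arrays, 1 factor was called.

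In culture the counts of Tconv were as large, but they rest on that 0 h array. With all arrays, 27 factors rose and Eif4ebp1 fell at 2 h, 27 rose at 8 h, 28 rose and Eif4e1b fell at 24 h, and 12 rose at 72 h. Of all genes, 26.3% were called at 2 h (19.5% higher), 18.9% at 8 h (15.7% higher), 26.8% at 24 h (19.4% higher) and 7.55% at 72 h (6.65% higher). These shares are from the fit to all arrays, and those of the fits that follow are not given here. Without the Tconv 0 h array numbered 1 the counts were 0, 10, 1 and 0, and without the one numbered 2 they were 41, 42, 42 and 42. Without all 3 narrow arrays they were 0, 7, 1 and 0. Single later arrays counted too: without the array numbered 1 or 2 of the later time the counts were 3 and 14 at 2 h, 25 and 16 at 8 h, 6 and 17 at 24 h, and 0 and 1 at 72 h. Between arrays numbered 1 the median difference of the factors was 1.54, 1.60, 1.52 and 1.51 at the 4 times, against 0.27, 0.56, 0.37 and 0.06 between arrays numbered 2. Over all genes these medians were 0.25, 0.11, 0.49 and 0.43, and -0.03, -0.02, -0.02 and -0.05. The median between arrays numbered 2 was thus highest at 8 h.

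Eif5a, Eif2b3 and Eif3b kept large differences at 8 h on either number. Eif5a read 9.66 and 10.87 at 0 h in cultured Tconv, 11.01 and 11.15 at 2 h, 12.58 and 12.30 at 8 h, 11.90 and 11.97 at 24 h, and 11.52 and 11.44 at 72 h. Eif2b3 read 7.10 and 7.43 at 0 h, 7.51 and 7.42 at 2 h, 9.10 and 8.79 at 8 h, 8.10 and 8.34 at 24 h, and 7.70 and 7.64 at 72 h. Eif3b read 9.24 and 10.76 at 0 h and 11.97 and 11.78 at 8 h. Eif2b3 was thus not above its 0 h arrays at 2 h, while Eif5a was above them at every later time. The rises at 8 h were 2.17 ± 0.24 for Eif5a (adjusted p = 1.4e-06) and 1.68 ± 0.28 for Eif2b3 (adjusted p = 0.000139), and both kept the call without any 1 of the 4 arrays.

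Several of the large pooled differences of cultured Tconv rest on the first 0 h array. Eif2s2 read 5.21 and 7.74 at 0 h and 8.82 and 8.13 at 2 h (2.00 ± 0.61). Eif3a, the largest eIF3 subunit, read 7.19 and 10.00 at 0 h and 10.32 and 10.29 at 2 h (1.71 ± 0.57). Eif5 read 7.24 and 9.70 at 0 h and 10.32 and 10.00 at 2 h (1.69 ± 0.49). In each case the second 0 h array lay nearer to the 2 h arrays than to the first 0 h array. Eif3e read 7.75 and 10.37 at 0 h and 10.39 and 10.79 at 72 h. Eif3l read 7.97 and 9.77 at 0 h, 10.87 and 10.71 at 8 h, and 10.65 and 10.51 at 24 h, and so lay above both 0 h arrays. Eif3i read 8.10 and 9.80 at 0 h and 10.70 and 10.43 at 24 h, and Eif3k 8.46 and 9.77, and 10.84 and 10.51. Eif4h read 8.38 and 10.05 at 0 h and 10.58 and 10.53 at 72 h.

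The 2 factors that fell in cultured Tconv rest on few arrays as well. Eif4ebp1 read 7.75 and 7.42 at 0 h and 7.08 and 7.07 at 2 h (fell by 0.51, standard error 0.17, adjusted p = 0.0277). Eif4e1b, a relative of eIF4E known from oocytes, read 8.85 and 7.50 at 0 h and 6.16 and 7.01 at 24 h (fell by 1.59, standard error 0.43, adjusted p = 0.0132). Both calls were lost without the 0 h array numbered 1 (adjusted p of 0.388 for Eif4ebp1 and 0.496 for Eif4e1b) or the later array numbered 1 (0.114 and 0.155), and that of Eif4ebp1 also without the 2 h array numbered 2 (0.0949). Eif4e1b is 1 of the genes whose clusters disagreed, with 0.08 on its other cluster at 8 h in Tconv in vivo against -0.39 here. Between 24 and 8 h in cultured Tconv 0 factors were called by limma's test, where 4.54% of all genes were, with 10 at an unadjusted p under 0.05, and 2 were called without the 3 narrow arrays.

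**Figure D5:**
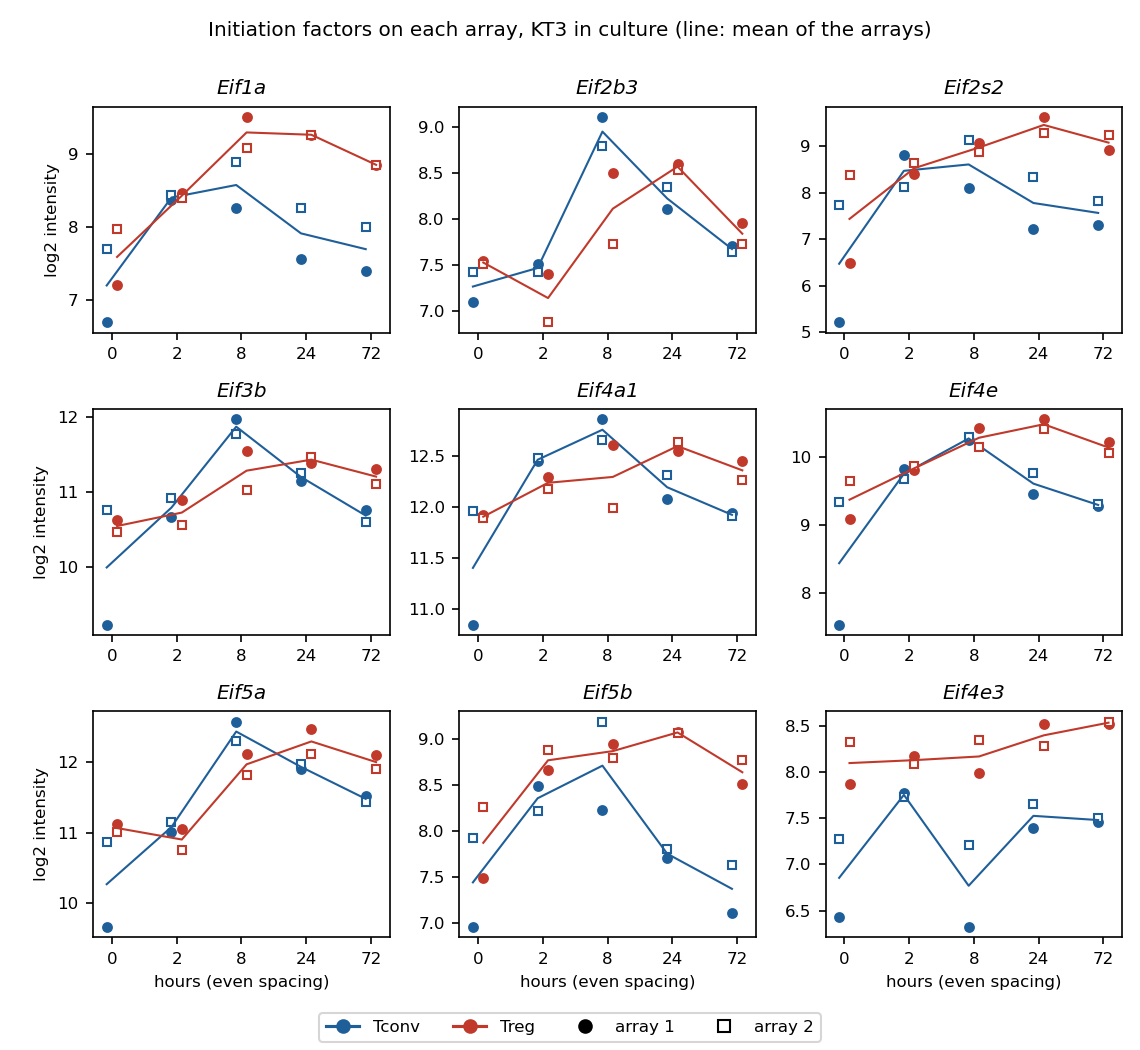
Log2 intensity of the same 9 factors (panels) on each array in culture, by hours (even spacing) for Tconv (blue) and Treg (red), with array 1 as filled circles and array 2 as open squares and the line at the mean. The Tconv array numbered 1 at 0 h is the lowest blue point for Eif1a, Eif2b3, Eif2s2, Eif3b, Eif4a1, Eif4e, Eif5a and Eif5b, for example 9.66 against 10.87 for Eif5a.

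In cultured Treg, 1, 2, 7 and 4 factors were called at 2, 8, 24 and 72 h (2.13%, 4.26%, 14.9% and 8.51% of the 47), and 0, 3, 5 and 4 without the 3 narrow arrays. At 2, 8 and 72 h these shares are below those of all genes. At 2 h only Eif2ak3 was called (0.96 ± 0.25, adjusted p = 0.0205), from 7.39 and 8.08 to 8.91 and 8.49, where 5.64% of all genes were called. That call was lost without the Treg 0 h array numbered 1 (adjusted p = 0.484) or the 2 h array numbered 1 (adjusted p = 0.25). At 8 h Eif1a (1.70 ± 0.31) and Eif5a (0.90 ± 0.24) rose, where 5.61% were called. At 24 h 7 factors rose, Eif1a, Eif2a, Eif2b3, Eif2s2, Eif4e, Eif5a and Eif5b, where 5.95% were called (5.01% higher). At 72 h Eif1a, Eif2a and Eif5a rose and Eif4e1b fell, where 9.11% were called (7.34% higher). The highest group mean lay at 24 or 72 h for most factors in cultured Treg (19 and 18 of 47) and at 8 h for 24 of 47 in cultured Tconv. The same shares of all genes are not given here, and the Tconv mean at 8 h takes in 1 of the 3 narrow arrays. A difference in timing between the cell types was not tested. Between 24 and 8 h in cultured Treg 0 factors and 0.0% of all genes were called by limma's test, and 0 factors had an unadjusted p under 0.05.

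Eif1a in cultured Treg read 7.20 and 7.98 at 0 h, 8.47 and 8.39 at 2 h, 9.50 and 9.09 at 8 h, 9.26 and 9.26 at 24 h, and 8.85 and 8.85 at 72 h. Its later arrays all lay above both at 0 h, and its calls at 8 h, 24 h and 72 h were lost without the 0 h array numbered 1 (adjusted p of 0.066, 0.0846 and 0.221), the last also without the 72 h array numbered 1 (0.0749). Eif5a read 11.12 and 11.01 at 0 h, 11.05 and 10.76 at 2 h, 12.12 and 11.82 at 8 h, 12.47 and 12.12 at 24 h, and 12.10 and 11.90 at 72 h. Eif5a was thus at its 0 h level or below at 2 h and above it from 8 h on, with calls lost at 8 h and 72 h without either 0 h array or the later array numbered 1 (adjusted p of 0.0545 to 0.358) and at 24 h without the 24 h array numbered 1 (0.0781). Eif2a read 7.43 and 8.48 at 0 h and 9.33 and 9.44 at 72 h (1.43 ± 0.31), and its call was lost without the 0 h array numbered 1 (adjusted p = 0.164). Leaving out that Treg array gave 0, 0, 1 and 0 calls at 2, 8, 24 and 72 h, and leaving out the one numbered 2 gave 4, 9, 12 and 7. Without the later array numbered 1 the counts were 0, 1, 1 and 1, and without the one numbered 2 they were 2, 2, 2 and 4.

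For the response differences between cultured Treg and Tconv, 0 factors were called at any time by limma's test. Of all genes, 0.145% were called at 2 h, 0.652% at 8 h, 0.491% at 24 h and 1.79% at 72 h, and 14, 22, 13 and 2 factors had an unadjusted p under 0.05. For the fit that follows, the share of all genes called is not given here. Without the Tconv 0 h array numbered 2, which leaves the narrow one alone, 29, 28, 24 and 22 factors were called.

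Responses after injection and in culture were compared by an F-test over the 4 time differences. It called 3 factors in Tconv (6.38% of the 47), Eif2ak3 (adjusted p = 0.0386), Eif2b3 (adjusted p = 0.00265) and Eif5a (adjusted p = 0.000261), where 6.37% of all genes were called. In Treg it called 5 (10.6%), Eif1a (adjusted p = 0.00205), Eif2b3 (adjusted p = 0.000191), Eif3b (adjusted p = 0.0116), Eif4a1 (adjusted p = 0.0094) and Eif5a (adjusted p = 0.000202), where 10.9% were called. These shares of the factors are those of all genes, so the counts show nothing particular to them, and the values below describe single genes. The in vivo response of Eif5a in Treg minus that in culture was 1.34 at 2 h, 0.60 at 8 h, -0.66 at 24 h and -0.92 at 72 h. For Eif2b3 in Treg these values were 2.03, 1.01, -0.61 and -0.27. Both thus had the larger early differences after injection and the larger late ones in culture, which were not tested time by time. Setting goes with age, and in culture sex goes with array number, so their parts in the difference cannot be told apart. All but Eif2ak3 kept their calls without any 1 of the 20 arrays in the comparison. Eif2ak3 kept it in 7 of those 20. Without the 3 narrow arrays the F-test called more factors in both cell types. The share of all genes called in that fit is not given here, so this is not shown to be particular to the factors.

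Eif2s3y, the Y-linked copy of the gamma subunit, followed the labelled sex. It read 3.15 to 4.06 (median 3.49) on the 32 female arrays and 7.23 to 9.25 (median 8.53) on the 10 male arrays. It passed the filter on low values through the male arrays, and its standard error (2.18) holds the gap between the sexes. Eif2s3x spanned 8.34 to 11.93 on female and 10.04 to 11.01 on male arrays. Eif2s3y, Eif4a2 and Eif4g3 were the 3 factors called at no time in any cell type or setting, while 44 were called at least once.

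For 7 of the members the array holds more than 1 cluster. The 3 clusters of Eif4a1 rose alike in Tconv at 8 h in vivo, by 1.18, 1.30 and 1.35. Those of Eif5a gave 1.93 and 1.35, and those of Eif2s2 2.03 and 1.54. For Eif4e the cluster used gave 1.56 and the dimmer ones 1.04 and -0.33, so 1 of its clusters did not share the rise. In Treg at 8 h in vivo the same clusters of Eif4e gave 1.22, 0.42 and -0.03, so the rise there rests on the cluster used. Where in the genome each cluster lies was not checked. Which clusters of Eif4e, Eif4a1 and Eif5a read the gene's own locus is thus not known, and this includes the clusters used.

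Genes that work beside the initiation factors were taken from 7 lists of the pathway. Of all genes, 21.0% were called at 8 h in vivo in Tconv (14.4% higher) and 9.67% in Treg (6.36% higher). The enzymes that make hypusine and polyamines, the modification and substrate supply of eIF5A, had 4 of 5 called higher in Tconv at 8 h in vivo. Odc1, the first enzyme of polyamine synthesis, read 8.94 and 8.12 at 0 h in Tconv and 11.26 and 11.20 at 8 h, a rise of 2.70 ± 0.28 (adjusted p = 2.96e-07). Srm, spermidine synthase, read 8.94 and 8.76 at 0 h and 11.35 and 11.37 at 8 h, a rise of 2.51 ± 0.25 (adjusted p = 1.48e-07). Dohh and Dhps, which form hypusine, rose by 1.31 ± 0.34 and 0.89 ± 0.19. In Treg at 8 h, Odc1 (2.18 ± 0.28) and Srm (2.54 ± 0.25) rose, and both had risen at 2 h in either cell type. The call of Dohh was lost without the 0 h array numbered 2 (adjusted p = 0.103) or the 8 h array numbered 1 (adjusted p = 0.11).

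Elongation genes gave 5 calls of 10 in Tconv at 8 h, all higher, but only Eef1d (1.01 ± 0.30) among them is a subunit of an elongation factor. Eef1e1, a scaffold of the tRNA synthetase complex (2.18 ± 0.36), Dph2, an enzyme of diphthamide synthesis (1.01 ± 0.20), Efl1, a ribosome maturation GTPase (0.78 ± 0.25), and Eef2k, the kinase that inhibits eEF2 (0.49 ± 0.16), were the others. Of 5 termination and recycling genes, the release factors Etf1 (1.66 ± 0.48) and Gspt1 (1.47 ± 0.42) rose. Of 10 other genes that act on initiation, as helpers or inhibitors, Denr (1.60 ± 0.44), Dhx29 (1.21 ± 0.27), Larp1 (1.17 ± 0.29) and Abcf1 (0.95 ± 0.20) rose. Pdcd4, an inhibitor of the eIF4A helicase, read 10.79 and 11.46 at 0 h and 9.15 and 9.11 at 8 h in Tconv and fell by 2.00 (standard error 0.61, adjusted p = 0.0191), a call held only without the 0 h array numbered 1. In the loop around eIF2 phosphorylation, Atf4, a transcription factor (1.02 ± 0.24), and Gcn1, an activator of Eif2ak4 (0.73 ± 0.21), rose and Trib3, a target of that loop, fell by 0.76 (standard error 0.21), of 7. Leaving out 1 of the 4 arrays ended the calls of Eef1d (adjusted p of up to 0.177), Efl1 (0.153), Eef2k (0.194), Etf1 (0.113), Gspt1 (0.116), Denr (0.0607), Larp1 (0.0747), Gcn1 (0.112) and Trib3 (0.133). In Treg at 8 h in vivo, Eef1e1, Dph2, Larp1, Dhx29 and Atf4 were called higher as well, and all of these but Eef1e1 lost the call when some single arrays were left out. By limma's test 0 of 10 genes of the mTOR and MNK arm were called at 8 h in vivo, with 5 at an unadjusted p under 0.05 in Tconv and 0 in Treg. Of 4 poly(A)-binding genes 0 were called, with 0 at an unadjusted p under 0.05 in either cell type.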

How the data were processed

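RNA of sorted T cells was measured on Affymetrix ST1.0 gene arrays. Per the labels and the series' design text, the authors normalized the arrays with RMA (GenePattern; the submitters' processing notes name Affymetrix Power Tools) and deposited linear intensity values, with versions not given in the sources used here. Log2 of the deposited intensity, with no offset, was used. Clusters with 1 platform symbol were kept (21425 of 24922), 1 per gene by highest mean. A gene entered the tests if 2 or more arrays had it above their own median. Limma 3.58.1 (R 4.3.3) fitted 22 groups over 42 arrays, leaving 20 residual degrees of freedom, with moderated tests adjusted by Benjamini-Hochberg over 12425 genes. The fit was checked on simulated data with known changes added. Their noise was independent, without narrow arrays or deviations shared by array number, so the check does not cover these features. Alternatives were quantile normalization, median centring, no filter, the mean of all clusters, a replicate block, leaving out each array, and leaving out the 3 narrowest. The number of arrays limits the precision. The members, the gene lists and the rule for named genes (any member, by role, with array values for those among the 3 largest rises or falls of a time comparison or called between cell types, and up to 3 called genes per pathway list) were chosen with earlier results of these data known; some further members and pathway genes are named beside them after their values were seen. Promoters and motifs were read from the RefSeq table. Tables and plots used Python 3.11.15, numpy 2.4.6, pandas 2.3.3 and matplotlib 3.10.9.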

Additional observations from a re-analysis of the deposited data

Results flagged for a closer look

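For 8 results the response after injection differed from that in culture by the F-test over the 4 times, at shares (6.38% of the factors in Tconv, 10.6% in Treg) near those of all genes (6.37% and 10.9%). In Tconv these were Eif5a (adjusted p = 0.000261), Eif2b3 (adjusted p = 0.00265) and Eif2ak3 (adjusted p = 0.0386). In Treg they were Eif2b3 (adjusted p = 0.000191), Eif5a (adjusted p = 0.000202), Eif1a (adjusted p = 0.00205), Eif4a1 (adjusted p = 0.0094) and Eif3b (adjusted p = 0.0116). The in vivo response of Eif2ak3 in Tconv minus that in culture was -1.54 at 2 h, -0.42 at 8 h, -0.15 at 24 h and -0.65 at 72 h, the opposite sign to Eif2b3 at 2 h (1.09). The groups hold 2 arrays each, too few to look for single outlying arrays within a group.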

How the results depend on the processing

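Without the 3 narrowest arrays, in vivo Tconv had 13 factors called at 2 h, 1 at 24 h and 30 between 24 and 8 h, and Treg 20 at 8 h and 8 between 24 and 8 h; in culture Tconv had 0, 7, 1 and 0 at the 4 times and 2 between 24 and 8 h, Treg 0 at 2 h, the cell types differed for 1 at 0 h, and the F-test called 7 in Tconv and 14 in Treg. Leaving out 1 array gave, in vivo, 2 to 4, 17 to 20 and 10 to 13 calls in Tconv at 2 h, 8 h and between 24 and 8 h, and 3 to 4, 5 to 6 and 0 to 1 in Treg; in culture 0 to 41, 10 to 42, 1 to 42, 0 to 42 and 0 to 1 in Tconv at the 4 times and between 24 and 8 h, and 0 to 4, 0 to 9, 1 to 12 and 0 to 7 in Treg. The cell types at 0 h differed for 0 to 1 factors in vivo and 0 to 40 in culture, their cultured responses for 0 to 29, 0 to 28, 0 to 24 and 0 to 22, and the F-test called 2 to 31 in Tconv and 5 to 7 in Treg; other comparisons gave 0. Quantile normalization gave 2 calls between 24 and 8 h in cultured Tconv, 1 for the cultured response difference at 8 h, and 5 and 8 by the F-test in Tconv and Treg. Without the filter 2 factors differed at 0 h in culture. The replicate block gave 2 calls in cultured Treg at 2 h, 11 between the cell types at 0 h in culture and 5 by the F-test in Tconv. The labels tie array numbers to no shared animal or day, and with 2 arrays a group the numbers were not taken to pair them: deviations of same-numbered arrays correlated at -0.17 to 0.78 (median 0.30) over 45 in vivo group pairs and at -0.45 to 0.71 (median 0.22) in culture. Within a cell type they correlated at 0.65 to 0.78 in Tconv and 0.41 to 0.70 in Treg in vivo (10 group pairs each), and at -0.13 to 0.70 and -0.40 to 0.60 in culture, so arrays of 1 number share deviations in vivo, where number goes with sorting passes; the block lost no in vivo call there. Eif1ax in cultured Tconv at 24 h turned to -0.07 without the 0 h array numbered 1 and without the 3 narrowest, and was 2.37 without the 0 h array numbered 2. Of single called differences, 536 kept their call when 1 array was left out and 379 lost it; under the other alternatives 1003 kept it and 178 lost it. With median centring, the all-gene median of Tconv at 8 h in vivo shifted by 0.16. The shares of all genes called under these alternatives are not given here, so a higher or lower count is not shown to be particular to the factors. The cause of these changes was not tested.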
